A study of Homo sapiens with 6 samples.

Results

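A set of 10 small nucleolar RNA (snoRNA) host genes were examined for DNA double-strand breaks (DSBs) in HCT116 cells treated with camptothecin (CPT). They were SNHG1, SNHG3, SNHG5, SNHG6, SNHG7, SNHG8, SNHG12, SNHG15, SNHG16 and GAS5, that is 10 of the 38690 protein-coding and long noncoding RNA (lncRNA) genes of chromosomes 1 to 22 and X in the annotation. The members were chosen by name from this family and by measured values, the −log10 q of paired sites in the 20 min libraries, by which SNHG7 holds a leading break cluster that was replicated at 20 min and not at 10 min. Those values are given as a description and carry no test. HCT116 is an established human colorectal carcinoma cell line. The untreated cells (Ctrl) and both CPT groups had 2 replicate libraries each, and mouse pre-B cells were added as a spike-in. CPT was given at 10 µM for 10 min (CPT10) or 20 min (CPT20) according to the treatment protocol and the design text. The sample labels instead read 10 µM and 20 µM, and the protocol's reading was kept. The data are a forward and a reverse peak list for each of the 4 treated libraries. Untreated cells served as the peak caller's input, and without peak lists of their own here, peaks that they may share were not separated.

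CPT traps DNA topoisomerase I on DNA, an enzyme that nicks 1 strand to release the torsion built up by transcription and replication. END-seq ligates an adapter to free DNA ends and sequences away from the break, so reads of the reverse strand pile up to the left of a DSB and reads of the forward strand to its right. A paired site is a reverse peak followed by its closest forward peak, either overlapping it or under 150 bp downstream. A site was called replicated when it overlapped a site of the other replicate, and overlapping replicated sites of both times were merged into a cluster. Values were collected over the gene body plus 5 kb on each side, called the window.

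snoRNAs are short nuclear RNAs that most human cells cut out of the introns of longer host transcripts. Box C/D snoRNAs guide ribose methylation of ribosomal RNA, box H/ACA snoRNAs guide its pseudouridylation, and a few of either kind act in cleavage of the ribosomal RNA precursor. The SNHG genes and GAS5 are host genes whose spliced exons encode no conserved protein, so the intron is often the part with a known function. Many snoRNA hosts share with ribosomal protein genes a transcription start inside a run of pyrimidines, the 5′ terminal oligopyrimidine (TOP) motif, which couples translation of the RNA to growth signals.

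In hg19 (GRCh37) with the GENCODE release 44 annotation, all members were lncRNA genes. SNHG3 (plus strand, 28832492 to 28837404) and SNHG12 (minus strand, 28905050 to 28909644) lay close together on chromosome 1, which also held GAS5 (minus, 173827697 to 173838020). SNHG8 was on chromosome 4 (plus, 119199858 to 119206471) and SNHG5 on chromosome 6 (minus, 86360209 to 86388650). SNHG15 was on chromosome 7 (minus, 45022618 to 45026560), SNHG6 on chromosome 8 (minus, 67832796 to 67838633) and SNHG7 on chromosome 9 (minus, 139615818 to 139622636). SNHG1 was on chromosome 11 (minus, 62619450 to 62623425) and SNHG16 on chromosome 17 (plus, 74553809 to 74667067). The annotated body of SNHG16 spans 113259 bp and that of SNHG5 28442 bp, against RefSeq gene lengths of 7585 and 1727 bp. The other 8 bodies were between 3943 and 10324 bp.

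RefSeq places snoRNA genes inside all 10 hosts. SNHG1, SNHG5, SNHG6 and SNHG16 carried box C/D snoRNAs alone. SNHG1 held 8, SNORD22 and SNORD25 to SNORD31. SNHG16 held 3, SNHG5 held 2 (SNORD50A and SNORD50B) and SNHG6 held 1, SNORD87. SNHG3, SNHG7, SNHG8 and SNHG15 carried box H/ACA snoRNAs alone. SNHG3 held SNORA73A and SNORA73B, the U17 snoRNAs that take part in ribosomal RNA precursor cleavage, and SNHG7 held SNORA17A and SNORA17B. SNHG8 and SNHG15 held 1 each, SNORA24 and SNORA9. GAS5, first described as a transcript that accumulates in growth-arrested cells, held 10 box C/D and 1 box H/ACA snoRNA, and SNHG12 held 1 and 3.

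The start regions of 8 members are printed because the break clusters of these genes began near them. Each run holds 40 bases before the RefSeq transcription start and 40 from the start onwards, on the gene's strand, 5′ to 3′, from the RefSeq promoter table (GRCh38.p14). Each promoter matched GRCh37 at 1 position, which is the position given. Capitals mark runs of at least 5 pyrimidines near the start.
SNHG1 (chr11:62623318-62623397, minus strand): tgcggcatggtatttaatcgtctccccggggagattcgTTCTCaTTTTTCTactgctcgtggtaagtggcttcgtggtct
SNHG5 (chr6:86388412-86388491, minus strand): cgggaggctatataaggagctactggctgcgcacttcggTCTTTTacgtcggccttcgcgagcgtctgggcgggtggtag
SNHG16 (chr17:74553806-74553885, plus strand): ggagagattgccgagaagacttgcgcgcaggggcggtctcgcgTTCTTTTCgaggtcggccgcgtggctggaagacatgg
GAS5 (chr1:173838144-173838223, minus strand): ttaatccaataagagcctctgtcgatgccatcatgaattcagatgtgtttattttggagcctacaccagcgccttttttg
SNHG12 (chr1:28908346-28908425, minus strand): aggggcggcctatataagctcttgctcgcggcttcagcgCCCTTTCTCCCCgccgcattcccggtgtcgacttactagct
SNHG3 (chr1:28832415-28832494, plus strand): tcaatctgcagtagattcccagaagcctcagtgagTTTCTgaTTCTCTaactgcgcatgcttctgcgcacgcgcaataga
SNHG8 (chr4:119199877-119199956, plus strand): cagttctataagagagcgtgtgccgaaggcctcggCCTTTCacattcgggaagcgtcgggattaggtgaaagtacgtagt
SNHG7 (chr9:139622597-139622676, minus strand): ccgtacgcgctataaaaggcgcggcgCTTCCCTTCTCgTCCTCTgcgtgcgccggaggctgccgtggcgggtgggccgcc
A TOP-like run, a C followed by at least 4 pyrimidines on the gene's strand, began exactly at the RefSeq start in 2 of the 8 (SNHG5 and SNHG12), against 4.07% of 35116 promoters and 56.6% of 83 ribosomal protein promoters. Within 5 bases of the start it was found in 5 of the 8, against 21.1% and 69.9%. The letters TATAA, searched on the gene's strand between 40 and 16 bases before the start after these sequences had been seen, were present in SNHG5, SNHG7, SNHG8 and SNHG12, and in 3.91% of all promoters and 10.8% of the ribosomal protein promoters. The pyrimidine runs and TATAA are letter matches and say nothing of the factors bound there.

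All 10 host genes had a replicated paired site at 10 min and at 20 min. Across all gene windows 8.5% had one at 10 min and 7.92% at 20 min, and 4.02% had one at both times. Of the 19402 windows of at most 25 kb, a size that 8 of the members share, 3.29% had one at both times. These counts rest on an overlap of at least 1 bp. When the sites of the replicates had to overlap over 50% of both, 5 members had one at 10 min (GAS5, SNHG1, SNHG5, SNHG6 and SNHG16), against 3.39% of windows. At 20 min 7 had one, against 3.64%, and 4 had one at both times, against 1.17%. When peaks had to reach a −log10 q of at least 10, 7 members had one at 10 min, against 0.651% of windows, and 8 at 20 min, against 1.2%. At both times 7 had one, against 0.457%. Because the members were proposed with results of these data known, the count of 10 describes them and does not test the family. Other lists were also above the share of all genes. Of the 20 other SNHG genes (with ZFAS1), 6 had a replicated site at both times (30%), as had 77 of 254 other snoRNA hosts (30.3%). Among the 84 genes for cytoplasmic ribosomal proteins, highly transcribed genes that make up the protein part of the ribosome, 63 had one (75%). Of the 8 genes for snoRNP core proteins, which bind snoRNAs and carry out the modification, 2 had one (25%), NOP58 and SNU13. The lists were not matched for window size, with a median of 50.6 kb in the other snoRNA hosts against 16.2 kb in the members. Nor were they made free of shared genes and sites. RCC1, among the other snoRNA hosts, has the same best site as SNHG3.

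**Figure D1:**
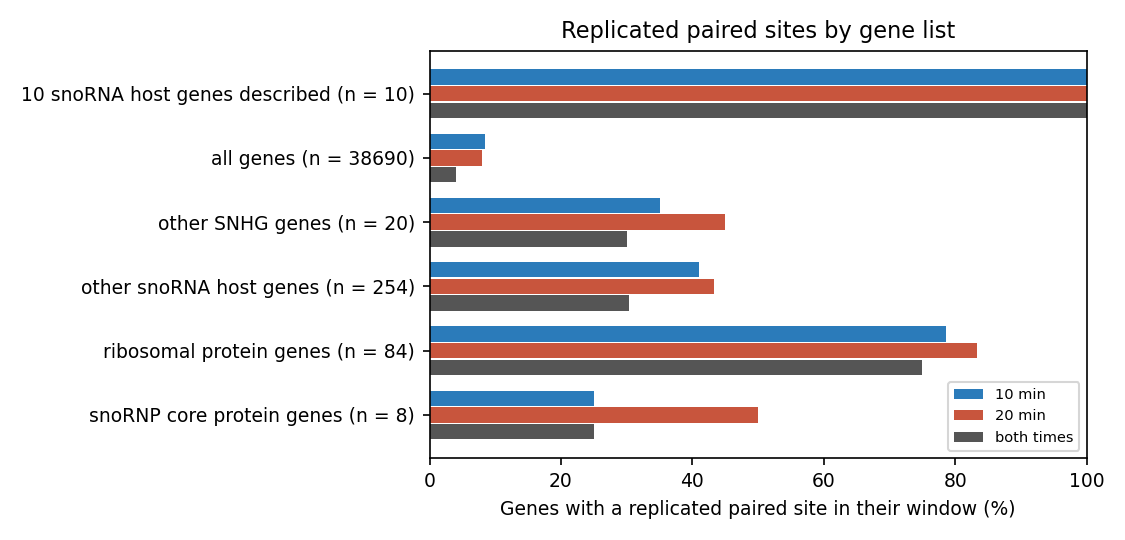
Share of genes (%, horizontal axis) with a replicated paired site in their window (overlap of at least 1 bp) at 10 min, at 20 min and at both times, for the 10 host genes, all genes and the comparison lists, with the number of genes in parentheses. The host genes stand at 100% in all 3, ribosomal protein genes at 75% to 83.3%, and all genes at 4.02% to 8.5%.

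The −log10 q of a paired site, the smaller value of its reverse and forward peak, grows with library depth, so ranks within a library are given beside it. The median over the members of the best site was 34.3 and 13.1 in CPT10 replicates 1 and 2 and 41.4 and 17.8 in CPT20 replicates 1 and 2. The same median over all gene windows was 3.17, 0, 2.90 and 0, where 0 means that no paired site lay in the window. The libraries had 102733, 54794, 85813 and 18831 merged sites in that order. Ranks compare the best site of each of the 38690 gene windows within a library, and neighbouring windows can share a site. The members ranked between 8 and 4531 among these windows.

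Among the box C/D hosts, SNHG1 had best sites at a −log10 q of 60.5 (replicate 1) and 27.5 (replicate 2) at 10 min and of 33.1 and 17.1, in the same order, at 20 min. SNHG5 had 35.0 and 14.4 at 10 min and 62.5 and 22.8 at 20 min. SNHG6 had 24.7 and 34.0, then 40.8 and 21.3. In SNHG1, SNHG5 and SNHG6 the values of the 2 times overlapped. SNHG16 had 39.3 and 11.8 at 10 min and 41.9 and 15.8 at 20 min. GAS5, which carries mostly box C/D snoRNAs, had 54.7 and 30.7, then 54.9 and 18.5, and its groups overlapped as well, as did those of SNHG16. SNHG6 was the only one of these 5 with a higher value in replicate 2 than in replicate 1 at 10 min.

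SNHG3, a box H/ACA host, led the members by the worst of its 4 ranks. Its best sites had 63.6 and 33.9 in CPT10 replicates 1 and 2. In CPT20 replicates 1 and 2 they had 102 and 51.4. The SNHG3 site ranked 20, 17, 8 and 13 in the 4 libraries, and by its worst rank it was at place 5 among all gene windows. In CPT10 replicate 2 SNHG6 stood ahead of it, at rank 12. SNHG12 had 33.6 and 11.9 at 10 min and 45.4 and 34.9 at 20 min. The other H/ACA hosts were the 3 weakest members. SNHG8 had 16.2 and 6.45, then 13.1 and 8.71, and was at place 365. SNHG7 had 10.9 and 6.45, then 23.6 and 13.2, and was at place 644. SNHG15 had 9.13 and 6.45, then 18.8 and 12.0, and was at place 996. Both 20 min libraries were above both 10 min libraries in SNHG7, SNHG12 and SNHG15, 3 of the 10 members, and below them in none. Of the 7396 windows with a paired site in all 4 libraries 9.95% were higher at 20 min in this way and 11.2% lower, and SNHG7 was chosen on that contrast. The remaining places were 31 for SNHG5, 35 for GAS5, 45 for SNHG1, 55 for SNHG12, 60 for SNHG6 and 62 for SNHG16. The ranges of −log10 q over the 4 libraries overlapped between all neighbouring members in this order, but −log10 q follows depth. By rank within the library, SNHG3 (8 to 20) stayed ahead of SNHG5 (22 to 172). SNHG16 (69 to 283) stayed ahead of SNHG8 (845 to 1799). The rank ranges of all other neighbours overlapped.

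**Figure D2:**
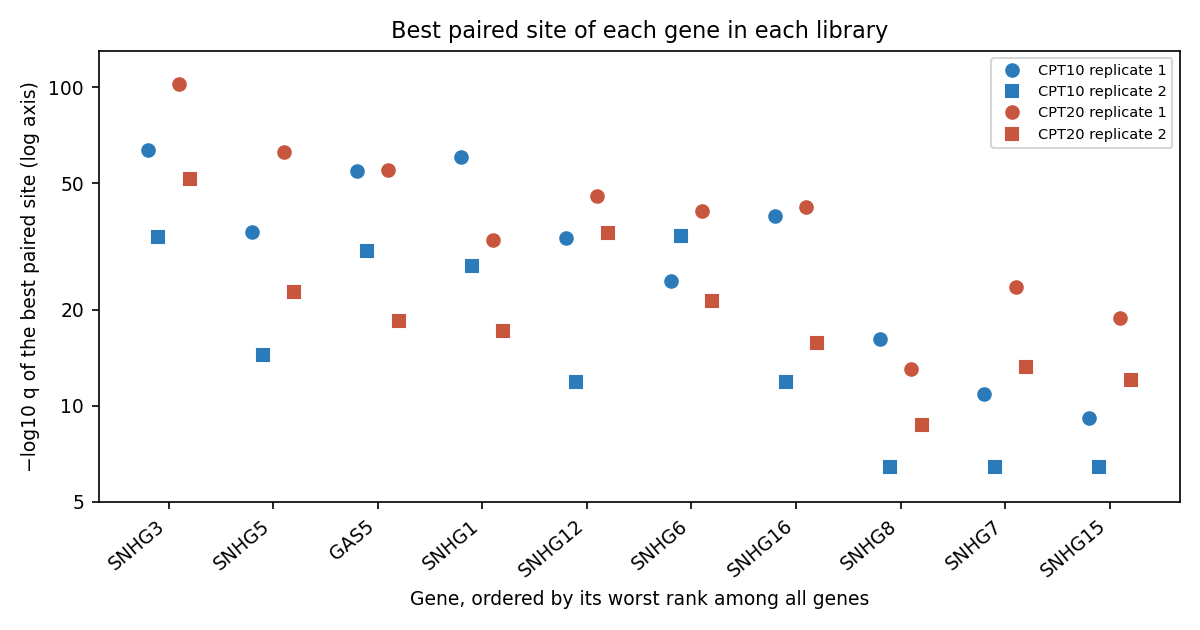
Best paired site of each host gene (−log10 q, log axis) in each library, with genes ordered by their worst rank among all gene windows. Blue marks 10 min, red 20 min, circles replicate 1 and squares replicate 2. SNHG3 reaches 102, while SNHG8, SNHG7 and SNHG15 all sit at 6.45 in CPT10 replicate 2.

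The peaks of these genes were wide. A median of 52.6% and 33.8% of the members' gene bodies lay under a peak in CPT10 replicates 1 and 2, as the mean of both strands, and 58.7% and 45.3% in CPT20 replicates 1 and 2. The medians over all genes were 6.10%, 3.67%, 6.14% and 2.03%. SNHG3 was covered over 91.6% and 74.8% of its body at 10 min and 89.9% and 69.7% at 20 min, and SNHG1 over 76.5% and 76.6%, then 88.1% and 61.7%. SNHG16 had the lowest values, between 5.41% and 17.9%, over its annotated 113259 bp. The ribosomal protein genes had medians of 34.6%, 23.0%, 43.3% and 27.1%, which was below the members' median in all 4 libraries.

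Peak coverage was highest in the first 5 kb downstream of the 5′ ends. It was not confined to gene bodies, as the SNHG12 cluster ended 6720 bp from the 5′ end, in a body of 4595 bp. Across the 4 libraries the first 2 kb downstream of the annotated 5′ ends were covered over 53.4% ± 10.4 (SD, n = 4 libraries) and the next 3 kb over 59.0% ± 8.46. Coverage was 26.2% ± 12.8 between 5 and 10 kb and 9.59% ± 5.56 between 10 and 20 kb. Upstream it was 13.7% ± 5.72 in the last 2 kb before the 5′ end and 5.81% ± 2.81 from 5 to 2 kb before it. All genes stayed between 5.20% and 6.66% in these 6 zones. Within the first 5 kb downstream the lowest member value of any library was 42.6% and the highest value of all genes 9.84%. In all 6 zones replicate 1 of each time was above both second replicates, in the members and in all genes alike.

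**Figure D3:**
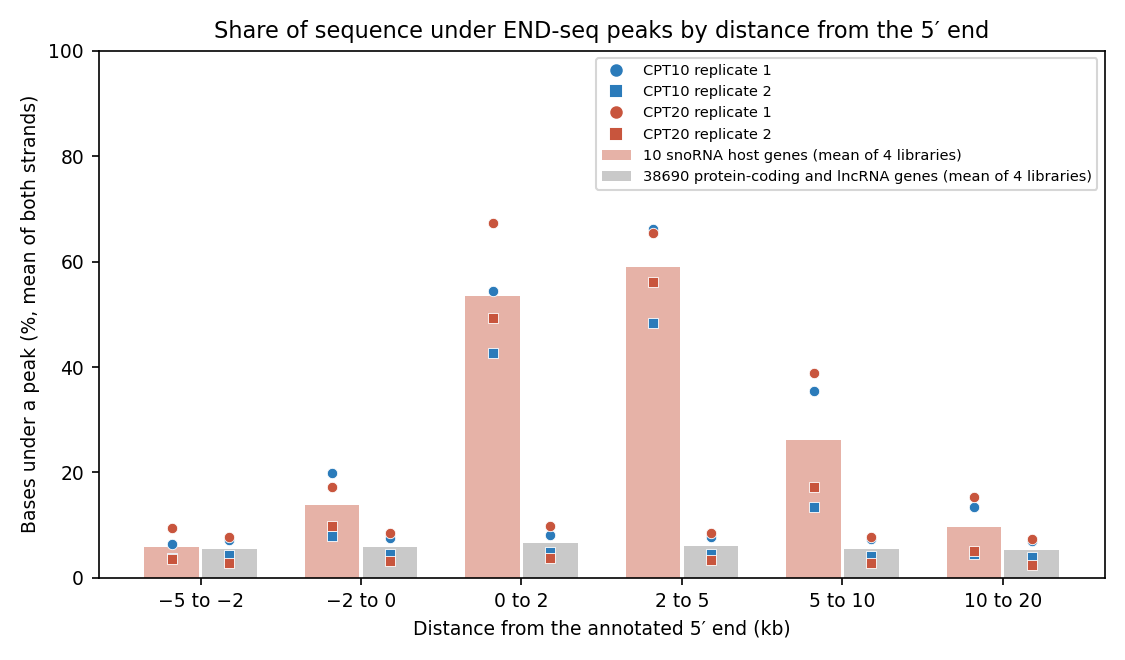
Bases under a peak (%, mean of both strands) in 6 zones by distance from the annotated 5′ end (kb), for the 10 host genes (red bars, mean of 4 libraries) and all genes (grey bars), with each library as a point. The host genes stand at 53.4% and 59.0% in the first 5 kb downstream, and all genes at no more than 6.66% in any zone.

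The host genes held 19 clusters, 13 replicated at both times, 2 at 10 min only and 4 at 20 min only. All 19 midpoints were downstream of the annotated 5′ end, 12 in an exon and 7 in an intron. Each window holds more sequence downstream of the 5′ end than upstream, and the share over all genes was not computed. Cluster widths ran from 582 to 9607 bp with a median of 2162 bp. Taken per time, before merging, the replicated sites in the members had median widths of 1863.5 bp (18 sites) at 10 min and 2038 bp (19 sites) at 20 min, while all replicated sites had medians of 713 and 951.5 bp. GAS5 had the widest, 173828142 to 173837748, over 93.1% of its body. SNHG3 and SNHG1 had 1 cluster each that covered the whole body, 6629 bp from 28832062 to 28838690 and 6454 bp from 62617672 to 62624125. SNHG12 and SNHG8 also had 1 each, over 72.3% and 61.6% of the body. SNHG16 had 5 clusters, all within 11140 bp of its 5′ end. The clusters of SNHG5 ended 6690 bp from its 5′ end, in a body of 28442 bp.

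The first cluster edge lay between −700 and 1275 bp from the annotated 5′ end in all 10 genes, negative values being upstream. The largest downstream distance was that of SNHG12. The RefSeq start of SNHG12, whose sequence is printed above with its TOP-like run at the start, is 1259 bp downstream of the GENCODE start, and the cluster began 16 bp after it. Over the 8 members with a RefSeq start, the first edge lay between −768 and 435 bp from it. It was nearer to the RefSeq than to the GENCODE start in 3 of them (SNHG12, SNHG3 and SNHG8), farther in 4 (GAS5, SNHG1, SNHG5 and SNHG16) and the same in SNHG7. In SNHG5 it moved from 30 to −169 bp. For the 8 members with a RefSeq start, coverage of the first 2 kb was 53.0% to 71.1% over the libraries, against 48.0% to 68.2% from the GENCODE starts. Coverage of the 2 kb upstream was 8.17% to 21.1% from RefSeq starts and 8.45% to 19.4% from GENCODE starts. Counted as site midpoints, density within 2 kb of the annotated 5′ ends over density in the rest of the windows was 1.65, 1.91, 1.14 and 2.33 in the 4 libraries, with a mean of 1.76 ± 0.50 (SD, n = 4).

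**Figure D4:**
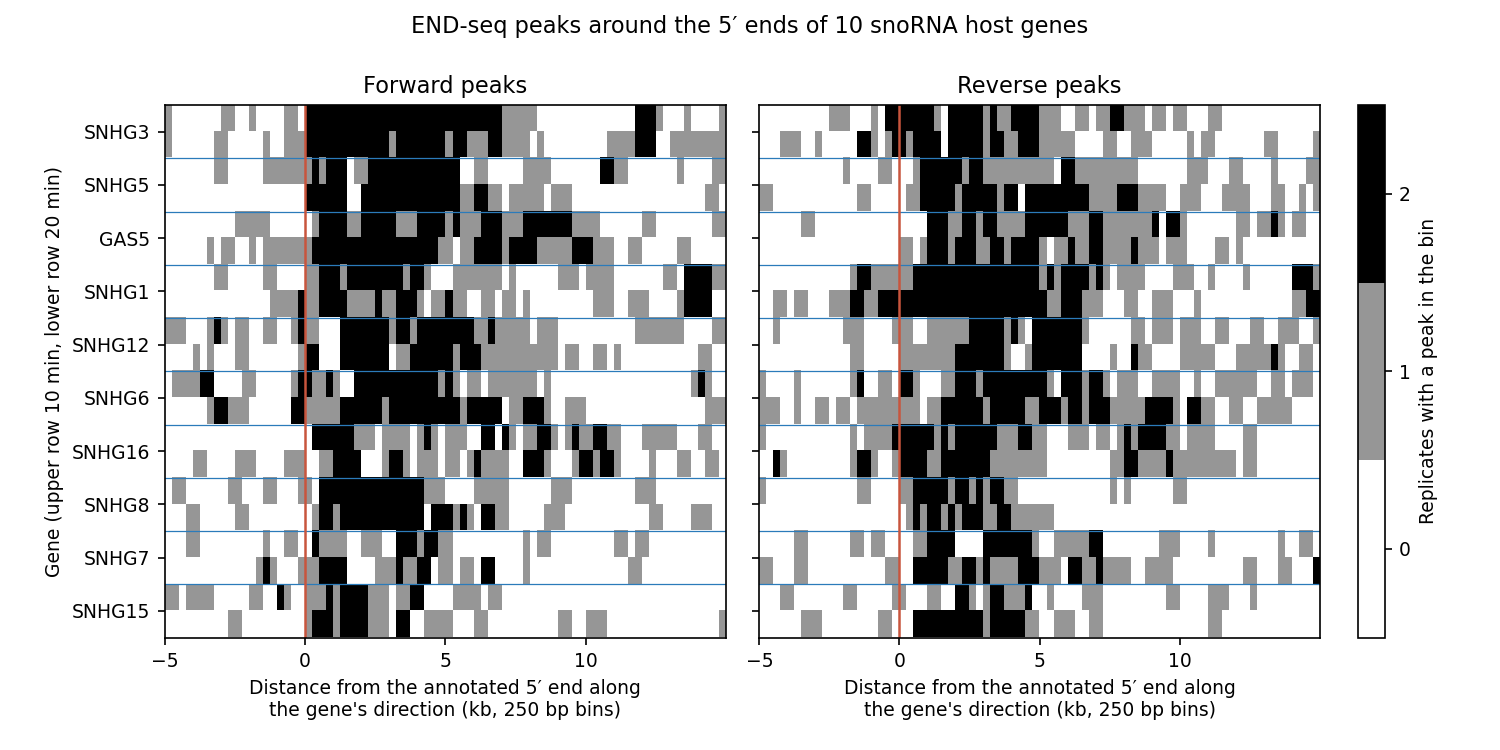
Forward (left) and reverse (right) peaks in 250 bp bins from 5 kb upstream to 15 kb downstream of each gene's annotated 5′ end (red line), read along the gene's direction. Each gene has an upper row for 10 min and a lower row for 20 min, and the grey level is the number of replicates with a peak in the bin. Bins with a peak in both replicates concentrate in the first 5 kb downstream, and in SNHG12 they begin beyond 1 kb for the most part.

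The highest forward and reverse summits were downstream of the 5′ end in all 4 libraries of every member. Of these 40 forward and 40 reverse summits, 35 and 33 lay within the first 5 kb. A window holds 5 kb upstream of the 5′ end against the body plus 5 kb downstream, which favours downstream summits in any gene. The share over all gene windows was not computed. The places of the summits moved between libraries in most genes. The forward summit of SNHG6 was an exception, at 2017, 2044, 2046 and 2056 bp from the 5′ end in the 4 libraries. Its height there was 70, 89, 71 and 56 fragments, which was 1.71 to 2.97 times the height of the highest reverse summit. The reverse summit of SNHG1 lay at 3760, 3820, 3779 and 3833 bp, near the end of its body, with heights of 72, 40, 91 and 34. It was higher than the forward summit in all 4 libraries. Reverse summits were also higher in all 4 libraries in SNHG16, and forward ones in SNHG8. In the other 6 members the side changed between libraries.

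In 29 of the 40 gene and library combinations the highest forward summit lay to the right of the highest reverse summit. The 2 summits were picked separately, and in SNHG6 in CPT10 replicate 1 they lay 2017 and 9368 bp from the 5′ end. Their order therefore does not show a single break, and the share over all gene windows was not computed. The number of the 10 genes with this order was 9 and 8 in CPT10 replicates 1 and 2, and 3 and 9 in CPT20 replicates 1 and 2. CPT20 replicate 1 thus stood apart from its partner. In SNHG3, for instance, its forward summit was 360 bp and its reverse summit 4531 bp from the 5′ end, at opposite ends of a body covered by peaks of both strands.

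SNHG7 was included for its cluster from 139620694 to 139622844, an interval that spans its 5′ end and has its midpoint in an intron. The cluster had a −log10 q of 23.6 and 13.2 in CPT20 replicates 1 and 2. In CPT10 replicate 1 a paired site with a −log10 q of 8.06 overlapped it, and CPT10 replicate 2 had none. The start sequence printed above lies inside it. The other SNHG7 cluster, from 139617175 to 139619252, was replicated at both times with 10.9, 6.45, 6.89 and 6.70. The cluster at the start was thus the stronger of the SNHG7 clusters at 20 min, and the downstream one at 10 min. The highest forward summit stood at 3704 and 3447 bp in the 10 min libraries and at 1053 and 1165 bp in the 20 min libraries. The highest reverse summit was at 4471 and 4428 bp at 10 min, at 4486 bp in CPT20 replicate 1 and at 1473 bp in CPT20 replicate 2.

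Clusters of 1 time alone also occurred in SNHG5, SNHG15, SNHG6 and SNHG16. SNHG5 had one at 20 min from 86381960 to 86384908, with 62.5 and 8.71, and CPT10 replicate 1 had a site of 23.2 there. SNHG15 had 2 such clusters at 20 min, of which the one from 45025251 to 45026377 had 18.8 and 6.73 and no site in either 10 min library. Of the 6 clusters of 1 time in all members, 5 had a site in replicate 1 of the other time and lacked it in replicate 2. The second replicates had fewer sites than the first at both times. The part of list length in these classes was not tested.

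The geometric mean of the highest forward and reverse fold enrichment, called the summit fold, compares the height of the 2 times within each gene. For SNHG7 it was 11.9 and 8.33 at 10 min and 17.4 and 12.1 at 20 min, and for SNHG3 26.6 and 18.5, then 35.9 and 29.1. In SNHG3 and SNHG7 both 20 min libraries were above both 10 min libraries. That was so in 4.96% of the 26135 windows with peaks of both strands in all libraries. SNHG7 was chosen on the contrast of the times, so its place here is a description only. SNHG8 had 14.2 and 10.1, then 9.23 and 8.76, the reverse order, found in 9.75% of windows. The other 7 overlapped. SNHG15 varied least, between 10.2 and 11.5, and SNHG5 had 23.1 and 13.9, then 30.03 and 14.7. For the 9 members other than SNHG7, limma on log2 summit fold gave differences (20 over 10 min) from −0.42 to 0.54 with an SE of 0.42 and Benjamini-Hochberg adjusted p-values of 1.00 for all (0 called). No window of the 26135 was called (0%), with 140 at an unadjusted p under 0.05. With the replicate number as a block, limma again called none, with 1571 windows at an unadjusted p under 0.05 and adjusted p-values of 0.817 to 0.991 for the 9 members.

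**Figure D5:**
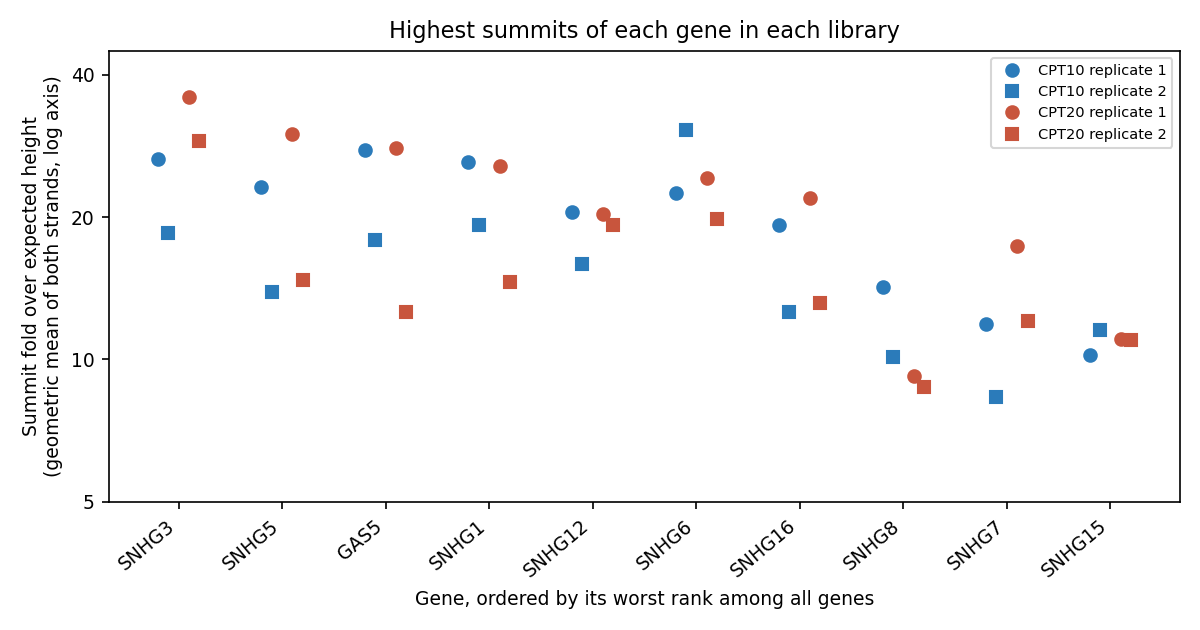
Summit fold over the expected height (geometric mean of the highest forward and reverse peak, log axis) of each host gene in each library, with genes in the order of their worst rank. Blue marks 10 min, red 20 min, circles replicate 1 and squares replicate 2. Red points lie above blue ones in SNHG3 and SNHG7 and below them in SNHG8, and in the other genes the times overlap. SNHG7 was chosen on the contrast of the times.

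The number of peaks per window was compared on a log2 scale after division by the number of peaks in the library's lists. The 9 members other than SNHG7 had differences from 0.25 to 0.64, all positive, with SEs of 0.30 to 0.40 and limma adjusted p-values of 0.996 to 0.997. None was called, and none of 31289 windows was (0%), with 1227 of them at an unadjusted p under 0.05. With the replicate number as a block the adjusted p-values were 0.760 to 0.876 and none was called. SNHG7 had a difference of 0.77, given without a test. The median difference was 0.45 over the 10 members and 0.10 over all windows. Without CPT20 replicate 2, the library with the shortest lists, the member median was 0.11, below the 0.18 of all windows. Without CPT20 replicate 1 it was 0.72, against 0.062. With all lists cut to the length of the shortest it was 0.13, against 0.095. The genes for snoRNP core proteins and for other snoRNA hosts had no called window in either direction.

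Set against flanks 10 to 500 kb away, the peak density (peaks per kb) of the members' windows was 1.66-fold in CPT10 replicate 1 and 1.69-fold in CPT10 replicate 2. At 20 min it was 1.61-fold in replicate 1 and 2.44-fold in replicate 2. The means were 1.68 ± 0.024 at 10 min and 2.02 ± 0.58 at 20 min (SD, n = 2 each). The log2 difference was 0.24, and −0.056 without CPT20 replicate 2. For the 9 members other than SNHG7 it was 0.24 as well, with a two-sided exact permutation p of 0.667 over the 4 libraries, for which the smallest possible p is 0.333. The ratios depended on the peak threshold. With peaks of a −log10 q of at least 10 alone, they were 3.21 and 13.0 in CPT10 replicates 1 and 2 and 3.10 and 15.4 in CPT20 replicates 1 and 2. By gene the ratio was 2.14 to 5.05 in GAS5, 2.52 to 4.26 in SNHG8 and 1.79 to 3.85 in SNHG1. SNHG16, with its long annotated body, had 0.97 to 1.10. Its window made up 123259 bp of the 288.723 kb pooled over the members, so it weighed heavily in the pooled ratios. Each peak counted once whatever its width.

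Several members share their window with other genes, and END-seq cannot assign a break to either. By GENCODE, SNHG3 starts 37 bp downstream of RCC1, and both have the same best site. RCC1 is a protein-coding gene on the same strand that encodes the exchange factor of the GTPase RAN. The RefSeq start of SNHG3, whose sequence is printed above, is at the GENCODE start of RCC1. SNHG1 and SLC3A2, which encodes an amino acid transporter subunit, start 51 bp apart on opposite strands, and the SNHG1 cluster reaches over both starts. The GAS5 cluster overlaps ZBTB37 and GAS5-AS1, that of SNHG12 overlaps TRNAU1AP, the wider one of SNHG6 overlaps MCMDC2, and that of SNHG8 overlaps PRSS12. The downstream cluster of SNHG7 overlaps DIPK1B. Both SNHG5 clusters overlap ENSG00000271793, a protein-coding gene on the same strand that starts 199 bp downstream of the GENCODE start of SNHG5. That position is also the RefSeq start of SNHG5. The first SNHG16 cluster overlaps the antisense lncRNA ENSG00000267546, and the last 2 overlap ST6GALNAC2 and ENSG00000284526, both protein-coding and on the opposite strand. The cluster at the start of SNHG7 and all clusters of SNHG15 overlapped no other annotated protein-coding or lncRNA gene.

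Genes outside the members that stood highest on the same measure were ZFAS1, SNHG9 and SNHG29 among the other SNHG genes. ZFAS1 had a best-site −log10 q of 30.9 and 11.9 at 10 min and 28.9 and 10.9 at 20 min. Among other snoRNA hosts RCC1 led, at the locus of SNHG3, followed by EIF4A2 and HSPA8, which encode a translation initiation helicase and a chaperone. RPLP0, RPL37 and RPL7 led the ribosomal protein genes, with RPLP0 at 42.6, 10.7, 33.1 and 34.9. NOP58 led the snoRNP core genes with 36.8, 5.46, 30.6 and 14.5, followed by NOP56 (13.1, 6.40, 10.9 and 13.2) and SNU13. FBL, the methyltransferase of box C/D particles, and DKC1, the pseudouridine synthase of box H/ACA particles, had no replicated site at either time. The 3 genes whose best sites over the 4 libraries were most like those of SNHG7, by Euclidean distance of log10(1 + −log10 q) over the 4 libraries, were RPL29, UBE2S and SYTL3. RPL29 had 11.9, 5.50, 21.3 and 13.2.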

How the data were processed

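END-seq was performed on HCT116 cells, 2 libraries for each of Ctrl, CPT10 and CPT20. Per the study's methods, the authors aligned paired reads to hg19 with Bowtie2, kept duplicates and called peaks with MACS2 per library and per strand, against the control and with no local background, without pooling replicates. Spike-in scaling came later and does not enter these lists. The tools, as the submitters' processing notes name them, are Trim Galore, Bowtie2, SAMtools and MACS2. The 8 deposited peak lists hold 286491 to 826744 peaks. The deposited columns are a score per peak, which was not used, a fold enrichment of the summit, given as a ratio, and its −log10 p and −log10 q. The deposited fold values lay on a grid, within 0.01 of a step, from which whole summit heights were recovered. Expected heights were 0.727 to 1.44, the only measure of depth here; read totals were not used.

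Windows, paired sites and clusters followed the definitions in the report. The study's removal of blacklisted regions and its enrichment test on read counts were not repeated. Peaks were compared between times with limma 3.58.1 in R 4.3.3 on log2 of the peak number (pseudocount 0.5) relative to the total of the lists, over windows with a mean of at least 5 peaks and an adjusted p threshold of 0.05, tested on simulated peak numbers beforehand. Comparisons of summit fold and of covered bases, and the test of relative density without SNHG7, were added after seeing the data. Other snoRNA hosts were the genes with a RefSeq snoRNA inside them on either strand. Named genes are all members, up to 3 leaders per list by worst rank of −log10 q, the 3 genes most like SNHG7, and neighbours that overlap a cluster. Members and lists were chosen with earlier results of these data known. Alternatives were stricter q thresholds, equal list lengths, other windows, pairing distances, flanks, scaling and a left-out library. The design text calls the replicates biological.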

Additional observations from a re-analysis of the deposited data

How the results depend on the processing

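Of the alternatives to the reported values, 1 turned a direction and 12 moved a value by more than its SD or a count by over 1.5 times. The other 73 did neither, among them all fits across gene windows, which called 0 windows in every setting. Some of the 73 could not move. Leaving out a library shifts a mean density ratio by less than its SD by arithmetic. The member counts without a library took any site of the remaining library, so they stayed at 10. The block cannot change the difference between times. The difference between times has no SD and was judged by its sign. The relative peak density of the members at 10 min (1.68) was 1.81 over gene bodies alone, 1.83 with 2 kb added, 1.59 against flanks of 10 to 100 kb, 2.08 against the whole chromosome, 2.21 with lists of equal length, 2.13 at a −log10 q of at least 3 and 8.12 ± 6.95 (SD, n = 2) at one of at least 10. At 20 min (2.02) it was 2.76 against the whole chromosome and 9.26 ± 8.70 at a −log10 q of at least 10. The difference between times (log2, 0.24) ran from −0.056 to 0.54 as single libraries were left out, and the lowest was the value without CPT20 replicate 2. When sites had to overlap over 50% of both, 5 members in place of 10 had a replicated site at 10 min, and 7 at 20 min. At a −log10 q of at least 10 the numbers were 7 and 8. Site density near 5′ ends (1.76) was 3.05 at a −log10 q of at least 10 and 2.61 within 5 kb, and 1.93 with RefSeq starts, an alternative added after seeing the data. The cause of these moves was not tested. With the replicate number as a block, the log2 difference in density stays 0.24 by arithmetic. It was −0.042 between the libraries numbered 1 and 0.52 between those numbered 2. Peak number with this block had 1838 windows in place of 1227 at an unadjusted p under 0.05. Over genes, the deviations of same-numbered libraries correlated at 0.20 for peak number, 0.16 for summit fold and 0.074 for covered bases. The study's methods list 2 experiments that each held untreated cells and both CPT times, but do not say that the replicate numbers are these experiments, so the block was kept as an alternative. It changed no call. CPT20 replicate 2 had the fewest sites and CPT10 replicate 2 the lowest expected height, and a cluster absent in either may be below detection. With 2 libraries per time and no peaks of Ctrl libraries analysed, neither a change over time nor an origin of the peaks in treatment was established.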

Other observations

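SNHG genes differed widely outside the 10 host genes described. SNHG19 had best sites with a −log10 q of 15.1 and 5.50 at 10 min and 51.2 and 19.9 at 20 min, so both 20 min libraries were above both 10 min libraries. SNHG25 had 29.6 and 14.4, then 13.96 and 13.2, so both 20 min libraries were below both 10 min libraries. Of the 7396 windows with a paired site in all 4 libraries, 9.95% were higher at 20 min in this way and 11.2% lower. SNHG18 and SNHG32 had no paired site in any of the 4 libraries, and SNHG14, in the imprinted Prader-Willi region and host to long arrays of box C/D snoRNAs, had 7.30, 5.46, 6.89 and 5.78 with no replicated site in a window of 451754 bp. SNHG19, SNHG25, SNHG18, SNHG32 and SNHG14 were chosen for mention after their values were seen.

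The clusters of the host genes had a median GC content of 47.6% (19 clusters, 39.0% to 59.2%), close to the 47.0% of their windows. All replicated sites with a GC value had medians of 39.7% at 10 min and 43.0% at 20 min.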
